A study of Mus musculus with 12 samples.

Results

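Interferon-stimulated genes, the transcripts that a cell switches on after it senses interferon, were compared between tumour-associated macrophages (TAMs) that carried nanoparticles and TAMs that did not. The group comprised 41 genes named by symbol, from the Ifit, Oas, Mx, guanylate-binding and immunity-related GTPase families to single antiviral effectors and the transcription factors behind them. All 41 were found among the 54532 genes counted, each symbol at 1 gene, and all 41 were among the 15014 genes with enough counts to be tested.

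The libraries came from 6 mice with glioma, all of the genotype Ntv-a_Ink4a/Arf_KO. Ntv-a lines carry a receptor for avian retroviral vectors under the nestin promoter, and Ink4a/Arf is a tumour suppressor locus. The age of the mice and the vector that started the tumours are not given in the sources used here. Every mouse was injected intravenously with rhodamine-labelled perfluoro-crown-ether (PFCE) nanoparticles, and the tumour was taken 24 hours later. Leukocytes positive for CD45 and CD11b and negative for Ly6C were separated on rhodamine fluorescence, each sort yielding over 2000 cells. The design text gives Ly6C- 2 times, so whether the gate used another marker in its place is not given in the sources used here. Each mouse gave 1 rhodamine-positive library and 1 rhodamine-negative library, so each group holds 6, with mice 1 to 4 labelled male and mice 5 and 6 labelled female. Both groups therefore share the tumour, the injection and the particle exposure, and no uninjected mouse was analysed here. All 12 libraries carry the same batch label. The question is which transcripts differ between particle-carrying TAMs and the particle-free TAMs of the same tumour.

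Type I interferons bind Ifnar1 and Ifnar2 and activate the kinases Jak1 and Tyk2, which lead to a complex that contains Stat2 and Irf9. That complex binds the interferon-stimulated response element (ISRE) in the promoters of its target genes. Interferon gamma acts through Ifngr1, Ifngr2, Jak1 and Jak2, and its target promoters carry the gamma-activated site (GAS). The induced proteins block viral RNA and protein production, and the pathway is held back by feedback inhibitors such as Usp18 and Socs1. In tumours, macrophages are known both as a source and as a target of interferon.

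The response element can be read in several of the promoters. The 250 bases upstream of the RefSeq transcription starts (build GRCm38.p6) were searched for the ISRE core GAAANNGAAA on both strands, which on the other strand reads TTTC, any 2 bases, TTTC; matches may overlap. RefSeq promoters were at hand for 32 of the 41 genes. The core was found upstream of 18 of these 32 genes (56.2%), against 3.46% of 27025 genes with a promoter in the same table. The GAS core TTCNNNGAA, the same on both strands, was found upstream of 7 of the 32 genes (21.9%), against 8.13% of all genes. The core stood upstream of 5 of the 11 genes with a promoter that fell in the comparison that follows, and of 12 of the 20 that did not pass. A match describes the letters of a window and is not a measured binding site. The 7 upstream sequences that follow are shown because the results turn on these genes, and because they show the element at different places and in overlapping copies; capitals mark every match to the ISRE core, and positions count back from -1, the base before the start. Ifit3b (chr19:34607707-34607956, plus strand) and its near copy Ifit3 (chr19:34583279-34583528, plus strand) share a pair of matches, whose first bases lie at -188 and -154 in Ifit3b and at -156 and -122 in Ifit3. Isg15 (chr4:156200819-156201068, minus strand) has 3 overlapping matches that begin at -78, -72 and -66. Stat2 (chr10:128270248-128270497, plus strand) has 1 match at -222, and Rsad2 (chr12:26456453-26456702, minus strand) 1 at -120. Bst2 (chr8:71537473-71537722, minus strand), the member that was higher in rhodamine-positive sorts, has 2 overlapping matches at -130 and -124. The first of 3 Isg20 promoters (chr7:78913174-78913423, plus strand) has none.
Ifit3b: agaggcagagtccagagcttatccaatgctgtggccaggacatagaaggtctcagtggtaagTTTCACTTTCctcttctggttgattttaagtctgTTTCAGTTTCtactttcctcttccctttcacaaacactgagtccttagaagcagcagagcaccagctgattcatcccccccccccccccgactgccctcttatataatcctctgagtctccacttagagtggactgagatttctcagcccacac
Ifit3: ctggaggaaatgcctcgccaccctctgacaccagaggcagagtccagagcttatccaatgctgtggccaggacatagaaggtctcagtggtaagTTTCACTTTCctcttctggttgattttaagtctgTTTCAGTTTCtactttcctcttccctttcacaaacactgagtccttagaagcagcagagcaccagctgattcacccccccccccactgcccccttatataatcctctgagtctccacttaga
Isg15: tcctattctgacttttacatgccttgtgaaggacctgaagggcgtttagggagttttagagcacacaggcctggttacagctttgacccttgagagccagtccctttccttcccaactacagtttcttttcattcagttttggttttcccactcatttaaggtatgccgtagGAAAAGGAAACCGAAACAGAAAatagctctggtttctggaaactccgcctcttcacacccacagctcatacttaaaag
Stat2: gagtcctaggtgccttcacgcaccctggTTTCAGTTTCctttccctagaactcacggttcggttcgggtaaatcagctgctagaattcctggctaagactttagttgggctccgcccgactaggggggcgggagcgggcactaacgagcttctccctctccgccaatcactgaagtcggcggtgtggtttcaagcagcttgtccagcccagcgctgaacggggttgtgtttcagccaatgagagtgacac
Rsad2: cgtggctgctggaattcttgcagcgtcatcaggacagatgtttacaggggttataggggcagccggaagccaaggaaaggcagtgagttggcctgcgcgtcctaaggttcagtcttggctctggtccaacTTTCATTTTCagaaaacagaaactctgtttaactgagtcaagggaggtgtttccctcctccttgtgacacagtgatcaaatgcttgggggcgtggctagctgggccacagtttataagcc
Bst2: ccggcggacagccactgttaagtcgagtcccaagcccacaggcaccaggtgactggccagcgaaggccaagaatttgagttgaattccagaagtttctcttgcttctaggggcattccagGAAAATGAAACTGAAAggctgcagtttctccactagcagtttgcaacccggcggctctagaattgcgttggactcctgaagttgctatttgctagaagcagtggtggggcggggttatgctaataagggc
Isg20: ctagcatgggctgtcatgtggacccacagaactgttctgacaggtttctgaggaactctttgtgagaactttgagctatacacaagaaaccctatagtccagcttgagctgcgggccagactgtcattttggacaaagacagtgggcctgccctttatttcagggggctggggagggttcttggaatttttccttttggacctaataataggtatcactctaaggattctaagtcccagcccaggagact

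Sequencing depth was similar in both groups, with 13073189 to 17379314 counts per rhodamine-positive library and 13421387 to 16167832 per rhodamine-negative library. Every member had at least 46 counts in every library, and the highest count was 7027. Macrophage markers dominated both sorts, and their summed level over 10 genes was 26391 to 31066 CPM in rhodamine-positive and 10631 to 25073 CPM in rhodamine-negative libraries. The rhodamine-negative library of mouse 5 stood apart: it had the lowest macrophage sum, the lowest microglia sum (3932 CPM) and the highest dendritic cell sum (1784 CPM, against 495 to 887 CPM in the other rhodamine-negative libraries). Its monocyte (1179 CPM), NK cell (109 CPM), basophil and mast cell (483 CPM) and endothelial (83.1 CPM) sums were also the highest of that sort. The plasmacytoid dendritic cell (192 CPM), neutrophil (221 CPM) and immediate early gene (11131 CPM) sums were the lowest. Siglech (134 CPM), which microglia also express, made up most of that plasmacytoid dendritic cell sum, and Csf3r (194 CPM) most of that neutrophil sum. Without Siglech and Csf3r, the plasmacytoid dendritic cell and neutrophil sums of this library were instead the highest of that sort (57.4 and 27.1 CPM). T cell, B and plasma cell and tumour lineage sums lay in between. The counts of members, pathway genes and dendritic cell and monocyte markers are therefore also given without mouse 5. CPM, the count of a gene relative to its library's total, is scaled throughout by TMM (the trimmed mean of M values, which evens out library composition). Here and in what follows, adjusted p-values come from edgeR's quasi-likelihood test with the mouse as a block and Benjamini-Hochberg adjustment over all 15014 genes.

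Of the interferon-stimulated genes that differed between the sorts, all but Bst2 were lower in TAMs that carried nanoparticles, mostly by less than 2-fold. At an adjusted p under 0.05, 15 of the 41 genes fell (36.6%) and 1 rose (2.44%); over all genes tested, 13.2% fell and 13% rose, 26.2% in either direction. The 15 that fell were Samd9l, Isg20, Slfn5, Ifit3b, Mx1, Mx2, Ifi44, Gbp5, Stat2, Usp18, Rsad2, Herc6, Ifih1, Parp14 and Irf9, and Bst2 rose. The median log2 fold change of the 41 genes was -0.21, against -0.02 for all genes tested. Estimates lay below 0 for 33 of the 41 (80.5%), against 51.8% of all genes tested. Only Samd9l fell by at least 2-fold; the next, Isg20, was 1.85-fold lower, and the smallest decrease past the threshold was 1.22-fold. Of the 15 genes that fell, 8 were lower in all 6 mice, 6 in 5 mice and 1 in 4 mice. The ranges of the groups overlapped for every one of the 41 genes, whereas 8.81% of all genes tested had groups that did not overlap. In bulk libraries such as these, fewer cells of a type that expresses a gene and less of its RNA per cell cannot be told apart.

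**Figure D1:**
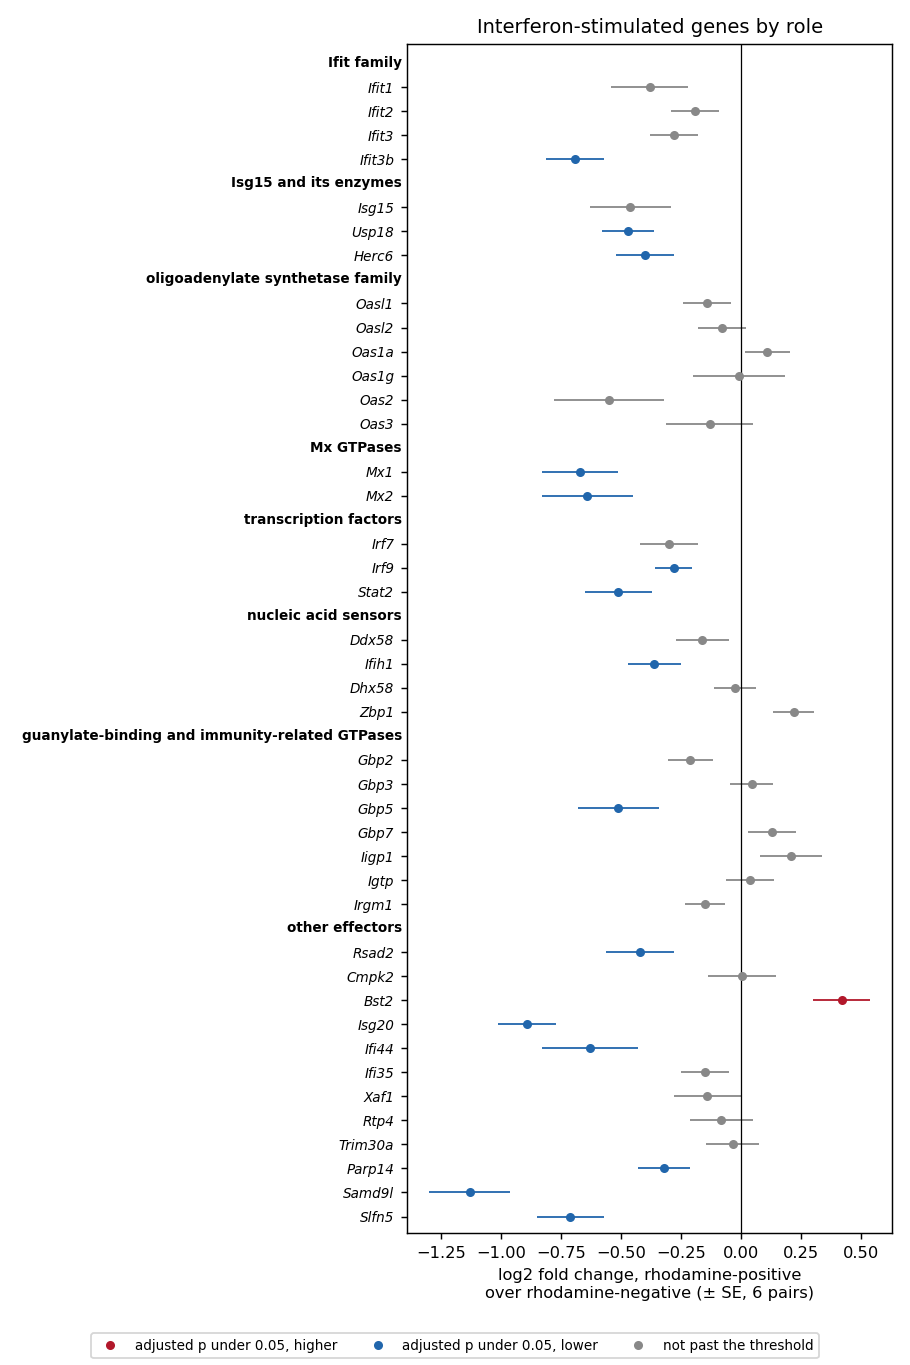
Log2 fold change of each of the 41 interferon-stimulated genes, rhodamine-positive over rhodamine-negative, grouped by role. Points are estimates over 6 pairs, bars are SE, and colours mark the 15 genes past the threshold that were lower and the 1 that was higher.

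These calls rest on the comparison within mice. Without the mouse as a block, 3 genes still passed, Samd9l, Isg20 and Ifit3b, all lower. Of all genes tested, 9.31% fell and 8.46% rose in that setting. The 3 genes also passed under each of the other 15 settings tried at the same threshold. Slfn5, Usp18 and Mx1 lost the call only without the block (adjusted p = 0.0746, 0.302 and 0.275). Leaving out 1 mouse at a time gave 7 to 15 lower genes, with 7 without mouse 1, 8 without mouse 2, 10 without mouse 3, 15 without mouse 4, 9 without mouse 5 and 12 without mouse 6. The share of all genes tested that fell was 11.1%, 11.5%, 9.4%, 12.1%, 10.4% and 9.92% in the same order. With scaling to library size alone, 24 of the 41 genes fell and 0 rose, and of all genes tested 20.9% fell and 5.67% rose. Under that scaling 38 of the 41 estimates lay below 0. It moved the median of all genes to -0.18 and of the 41 genes to -0.37.

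Markers of other cell types moved in the same comparison. All 10 dendritic cell markers fell, and their summed level was 179 to 315 CPM in rhodamine-positive and 495 to 1784 CPM in rhodamine-negative libraries. Clec9a, which defines a lineage of conventional dendritic cells, averaged 0.423 CPM in rhodamine-positive and 2.27 CPM in rhodamine-negative sorts. Of 9 monocyte markers tested, 5 fell and 1 rose, with sums of 311 to 489 CPM in rhodamine-positive and 659 to 1179 CPM in rhodamine-negative libraries. The largest part of these sums was Nr4a1, with means of 263 CPM in rhodamine-positive and 545 CPM in rhodamine-negative sorts, so they mainly follow that 1 gene. Without mouse 5, 10 of 10 dendritic cell markers and 5 of 9 monocyte markers were lower, and 1 monocyte marker higher. Both NK cell markers tested fell: Klrd1, which makes up most of the sum of 2.3 to 10.9 CPM in rhodamine-positive and 42.2 to 109 CPM in rhodamine-negative libraries, and Gzmb, with means of 0.312 CPM in rhodamine-positive and 9.52 CPM in rhodamine-negative sorts. The NK cell genes Ncr1 and Eomes had 16 and 6 counts over all 12 libraries. All 4 basophil and mast cell markers tested fell (0.25 to 24.7 CPM in rhodamine-positive and 8.23 to 483 CPM in rhodamine-negative libraries). Of 10 macrophage markers 6 rose and 1 fell, and of 8 microglia markers 2 rose, with microglia sums of 8579 to 14341 CPM in rhodamine-positive and 3932 to 12470 CPM in rhodamine-negative libraries. Tumour lineage markers (4 of 7 lower) summed to 43.4 to 132 CPM in rhodamine-positive and 95.2 to 148 CPM in rhodamine-negative libraries. B and plasma cell markers (2 of 5 lower) summed to 22.1 to 40.9 CPM in rhodamine-positive and 30.5 to 78.6 CPM in rhodamine-negative libraries. Cd79b, most of the rhodamine-positive sum, did not pass (means of 28.7 CPM in rhodamine-positive and 23.6 CPM in rhodamine-negative sorts). Those that fell were Jchain, with means of 0.086 CPM in rhodamine-positive and 18.6 CPM in rhodamine-negative sorts, and Mzb1, with 0.0523 and 2.87 CPM. None of 5 endothelial markers passed. Of 12 immediate early genes, which respond to cell handling, 10 fell, with sums of 6912 to 10484 CPM in rhodamine-positive and 11131 to 16297 CPM in rhodamine-negative libraries. The defining markers of T cells were nearly absent, with 20, 13 and 22 counts of Cd3d, Cd3e and Cd3g over all 12 libraries; of 2 T cell markers tested, Cd4 was higher (means of 8.98 CPM in rhodamine-positive and 4.71 CPM in rhodamine-negative sorts) and Lck did not pass. The T cell sum was 6.24 to 17.4 CPM in rhodamine-positive and 5.49 to 9.05 CPM in rhodamine-negative libraries. Ly6g, which defines neutrophils, had 1 count in all. Of 3 neutrophil markers tested, Mmp8 was higher (3.35 CPM in rhodamine-positive and 1.17 CPM in rhodamine-negative sorts), Cxcr2 lower (1.24 CPM in rhodamine-positive and 6.86 CPM in rhodamine-negative sorts) and Csf3r, nearly all of the sum of 252 to 417 CPM in rhodamine-positive and 221 to 390 CPM in rhodamine-negative libraries, did not pass. The part of these markers in the interferon result was not tested.

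Among the Ifit genes, a cluster on chromosome 19 whose products are known for blocking viral RNA, 1 of 4 fell. Ifit3b (ENSMUSG00000062488, chr19:34607970-34613401) had 14.7, 24.7 and 28.2 CPM as the lowest, median and highest value in rhodamine-positive libraries, against 20.2, 38.6 and 54.7 CPM in rhodamine-negative libraries. It was lower in all 6 mice, although the libraries of different mice overlapped, and its log2 fold change was -0.69 ± 0.12 (SE, n = 6 pairs; adjusted p = 0.00224). Ifit3 (ENSMUSG00000074896, chr19:34583531-34588731), its near copy, with the same pair of matches upstream, had 81.3, 156 and 187 CPM in rhodamine-positive and 89.0, 185 and 211 CPM in rhodamine-negative libraries. Ifit3 was also lower in all 6 mice but did not pass the test (-0.28 ± 0.10, adjusted p = 0.0533). The pair shares 51.2% of the 50-base stretches of Ifit3 and 45.0% of those of Ifit3b, so the authors' counting could have split reads between them. Summed to 1 gene, an alternative chosen after the data were seen, the pair fell by 0.35 on the log2 scale (SE 0.099, adjusted p = 0.024). Ifit1 and Ifit2 had estimates of -0.38 (adjusted p = 0.0985) and -0.19 (adjusted p = 0.172), each lower in 5 of 6 mice.

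Isg15, a ubiquitin-like protein that is joined to other proteins, had 15.3, 27.5 and 64.2 CPM in rhodamine-positive and 17.9, 39.4 and 72.8 CPM in rhodamine-negative libraries. Its estimate was -0.46 ± 0.17 and did not pass the test (adjusted p = 0.069). Both of its enzymes on the list fell. Usp18 (ENSMUSG00000030107, chr6:121245906-121270917), the protease that removes Isg15 and also blocks signalling at Ifnar2, had 48.5, 98.5 and 187 CPM in rhodamine-positive and 86.3, 135 and 181 CPM in rhodamine-negative libraries. It was lower in mice 1 to 5 and slightly higher in mouse 6, with a log2 fold change of -0.47 ± 0.11 (adjusted p = 0.0114). Herc6, the main ligase for Isg15 in the mouse, was lower in all 6 mice (-0.40 ± 0.12, adjusted p = 0.0265), with a median of 14.3 CPM in rhodamine-positive and 18.6 CPM in rhodamine-negative libraries. Herc6 passed in 9 of 16 other settings at the same threshold, and not without mouse 1, 3 or 5 (adjusted p = 0.0642, 0.0764 and 0.0828), in male mice alone (0.107) or without the block (0.246). Of its 50-base stretches, 12.5% are shared with other annotated genes.

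Oas enzymes make the short RNA-like messenger that activates RNase L. None of the 6 family genes tested, which include the Oas-like genes Oasl1 and Oasl2, passed in either direction. Their estimates ran from -0.55 for Oas2 to 0.11 for Oas1a, with a median of -0.10. Oas2 had 9.17 to 126 CPM in rhodamine-positive and 37.2 to 94.5 CPM in rhodamine-negative libraries. Its pair difference was -2.01 in mouse 2 and 0.42 in mouse 6 on the log2 scale, and the SE of 0.23 was the largest among the 41 genes (adjusted p = 0.106). Oas2 passed in 2 of 16 other settings at the same threshold. These were without mouse 6, with an estimate of -0.75 (adjusted p = 0.0421), and without the filter (adjusted p = 0.000188). Oas1a and Oas1g share 57.6% and 45.7% of their 50-base stretches, and their sum did not pass either (0.10 ± 0.10 on the log2 scale, adjusted p = 0.526).

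Both Mx genes, dynamin-like GTPases that trap viral nucleocapsids, fell. Mx1 (ENSMUSG00000000386, chr16:97447035-97462907) had 11.2, 36.2 and 74.3 CPM in rhodamine-positive and 31.0, 53.4 and 71.8 CPM in rhodamine-negative libraries. Mouse 2 was the lowest in both sorts, and mouse 6 was the only mouse in which the rhodamine-positive library was the higher of the pair. The log2 fold change of Mx1 was -0.67 ± 0.16 (adjusted p = 0.00903). Mx2 (ENSMUSG00000023341), annotated as a polymorphic pseudogene, was lower in all 6 mice, with pair differences from -1.49 in mouse 1 to -0.01 in mouse 5 on the log2 scale (-0.64 ± 0.19, adjusted p = 0.0278). Mx2 did not pass when mouse 1, 2 or 3 was left out (adjusted p = 0.0787, 0.0763 and 0.075).

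Of the transcription factors, Stat2 and Irf9, partners in the complex that binds the response element, fell. Stat2 (ENSMUSG00000040033, chr10:128270559-128292849) had 31.3, 57.4 and 155 CPM in rhodamine-positive and 59.4, 73.4 and 160 CPM in rhodamine-negative libraries. It was lower in all 6 mice, with pair differences from -1.19 in mouse 2 to -0.04 in mouse 6 on the log2 scale (-0.51 ± 0.14, adjusted p = 0.0212), and it did not pass without mouse 1 or mouse 2 (adjusted p = 0.0663 and 0.0534). Irf9 (ENSMUSG00000002325, chr14:55603571-55610030) varied least between mice, with 69.6, 77.7 and 104 CPM in rhodamine-positive and 84.3, 90.6 and 129 CPM in rhodamine-negative libraries. Its pair differences lay between -0.43 and -0.20 on the log2 scale (-0.28 ± 0.08, adjusted p = 0.0182). It did not pass without mouse 6 (adjusted p = 0.0551), without the filter (0.0874), in male mice alone (0.0994) or without the block (0.141). Irf7, which amplifies interferon production, had 108, 197 and 444 CPM in rhodamine-positive and 172, 228 and 419 CPM in rhodamine-negative libraries and did not pass (-0.30 ± 0.12, adjusted p = 0.0824).

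**Figure D2:**
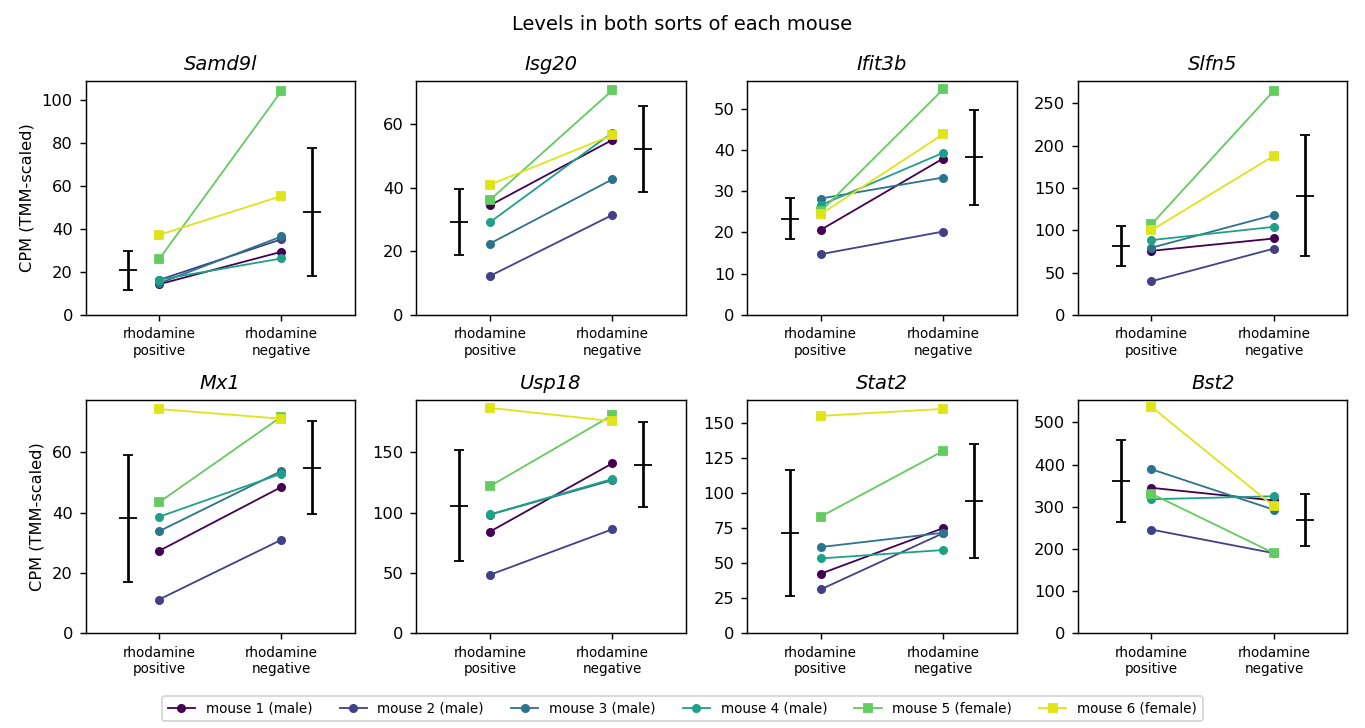
TMM-scaled CPM of 8 interferon-stimulated genes in the rhodamine-positive and rhodamine-negative library of each mouse, joined by lines, with mean ± SD (n = 6) beside each group. Samd9l, Isg20, Ifit3b, Slfn5 and Stat2 were lower in the rhodamine-positive library of every mouse, Mx1 and Usp18 in 5 of 6, and Bst2 was higher in 5 of 6.

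Among sensors of foreign nucleic acid, 1 of 4 passed. Ifih1, which encodes the long double-stranded RNA sensor MDA5, had 25.4, 33.9 and 42.1 CPM in rhodamine-positive and 31.7, 39.8 and 64.2 CPM in rhodamine-negative libraries (-0.36 ± 0.11, adjusted p = 0.0348). It was lower in all mice but mouse 3. Ifih1 passed in 9 of 16 other settings at the same threshold; it lost the call without mouse 1, 2, 4, 5 or 6 (adjusted p = 0.0597 to 0.101), in male mice alone (0.217) and without the block (0.154). Ddx58 (RIG-I) and Dhx58 (LGP2), of the same helicase family, had estimates of -0.16 and -0.02 (adjusted p = 0.299 and 0.876). Zbp1, a sensor of Z-form nucleic acid, was the only member with a higher rhodamine-positive value in all 6 mice, but it did not pass the test (0.22 ± 0.09, adjusted p = 0.076). Its levels were 33.5, 82.3 and 222 CPM in rhodamine-positive and 31.9, 73.1 and 157 CPM in rhodamine-negative libraries.

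Guanylate-binding proteins (GBP) and immunity-related GTPases attack the vacuoles of intracellular pathogens and are known above all as targets of interferon gamma. Of these 7 genes, Gbp5 fell and the other 6 did not pass, and the median estimate was 0.04. Gbp5 had the lowest level of the 41 genes per exon length, 1.32 CPM per kb in rhodamine-positive and 1.94 CPM per kb in rhodamine-negative sorts. It was lower in all mice but mouse 4 (-0.51 ± 0.17, adjusted p = 0.0438), and lost the call when any mouse but mouse 4 was left out (adjusted p = 0.0718 to 0.134). Gbp2, Gbp3, Gbp7, Iigp1, Igtp and Irgm1 had estimates between -0.21 and 0.21. This family differed far more between mice than between sorts. Iigp1 had 5.61 to 130 CPM in rhodamine-positive and 5.29 to 109 CPM in rhodamine-negative libraries, with mouse 6 the highest and mouse 2 the lowest in both.

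Of the 12 other effectors, 6 fell and 1 rose. Samd9l (ENSMUSG00000047735, chr6:3372257-3399572), an interferon-induced protein that restrains cell growth and poxviruses, changed most. It had 14.2, 16.2 and 37.1 CPM in rhodamine-positive and 26.2, 35.7 and 104 CPM in rhodamine-negative libraries. All 6 mice were lower, with pair differences from -0.57 in mouse 6 to -2.01 in mouse 5 on the log2 scale, and the log2 fold change was -1.13 ± 0.17 (adjusted p = 0.000672). Isg20 (ENSMUSG00000039236, chr7:78913424-78920396), an exonuclease that degrades RNA, had 12.2, 31.7 and 40.9 CPM in rhodamine-positive and 31.4, 55.8 and 70.6 CPM in rhodamine-negative libraries. It too was lower in all 6 mice, with a log2 fold change of -0.89 ± 0.12 (adjusted p = 0.000314), the smallest p among the 41 genes. Its promoters carry no match to the ISRE core in the windows searched.

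Slfn5 (ENSMUSG00000054404, chr11:82951349-82964840), a Schlafen family protein, had 39.7, 83.8 and 107 CPM in rhodamine-positive and 78.3, 111 and 265 CPM in rhodamine-negative libraries. It was lower in every mouse (-0.71 ± 0.14, adjusted p = 0.00311), and 8.84% of its exon length lies opposite an antisense gene, from which reads cannot be told apart here. Rsad2 (viperin), which makes a nucleotide that ends viral RNA chains, fell by 0.42 (SE 0.14, adjusted p = 0.0476) and was lower in only 4 of 6 mice. Its neighbour Cmpk2, a mitochondrial nucleotide kinase on the same chromosome 12 stretch, had an estimate of 0.00 ± 0.14 (adjusted p = 0.986). Ifi44 (-0.63 ± 0.20, adjusted p = 0.0345) and Parp14, a mono-ADP-ribosyltransferase (-0.32 ± 0.11, adjusted p = 0.0457), were each lower in 5 of 6 mice. Rsad2, Ifi44 and Parp14 passed in 8, 10 and 7 of 16 other settings at the same threshold, and their highest adjusted p was 0.367, 0.409 and 0.339, each without the block. Ifi35, Xaf1, Rtp4 and Trim30a had estimates between -0.15 and -0.03 and did not pass.

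Bst2 (ENSMUSG00000046718, chr8:71534255-71537456), the tetherin that holds budding virions to the cell surface, was the member with the highest level per exon length, 400 CPM per kb in rhodamine-positive and 298 CPM per kb in rhodamine-negative sorts. It had 246, 338 and 537 CPM in rhodamine-positive and 190, 297 and 325 CPM in rhodamine-negative libraries. It was higher in all mice but mouse 4, by 0.80 and 0.83 on the log2 scale in mice 5 and 6 and by at most 0.41 in the others. The log2 fold change was 0.42 ± 0.12 (adjusted p = 0.0221). Bst2 did not pass without mouse 3 (adjusted p = 0.0608), without mouse 6 (0.34, adjusted p = 0.0793) or in male mice alone (0.21, adjusted p = 0.198). In the mouse Bst2 is also a surface marker of plasmacytoid dendritic cells, of whose 7 markers tested 3 were lower and 0 higher. Ccr9 averaged 0.858 CPM in rhodamine-positive and 3.94 CPM in rhodamine-negative sorts (adjusted p = 0.00679), Spib 2.19 CPM in rhodamine-positive and 7.95 CPM in rhodamine-negative sorts (adjusted p = 0.00279), and Runx2 was lower as well. Siglech, which microglia also express, made up most of their summed level and did not pass (-0.14, adjusted p = 0.548). Without it the sum was 32.6 to 60.8 CPM in rhodamine-positive and 36.4 to 57.4 CPM in rhodamine-negative libraries. By mean level the largest part of that remainder was Cox6a2, with 32.6 CPM in rhodamine-positive and 23.1 CPM in rhodamine-negative sorts. Its estimate went the other way and did not pass (0.54, adjusted p = 0.069).

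Levels of the 41 genes differed from mouse to mouse, and for most of them this spread was wider than the difference between sorts. The SD over mice of each gene's mean log2 CPM had a median of 0.529 for the 41 genes, against 0.194 for the 8417 genes tested in the same range of mean level. The SD of the pair differences was 0.325, against 0.281. For 32 of the 41 genes (78.0%) the SD over mice exceeded the size of the sort difference, as it did for 42.2% of the 8417 genes. The median ratio of the highest to the lowest mouse was 3.37 in rhodamine-positive and 2.54 in rhodamine-negative libraries. Iigp1 had the widest range, 23.1-fold in rhodamine-positive and 20.5-fold in rhodamine-negative libraries, and Irf9 had 1.53-fold in rhodamine-negative libraries.

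The same mice stood at the ends for most of the genes. In rhodamine-positive libraries mouse 6 was the highest for 35 of the 41 genes (85.4%, against 21.2% of all genes tested) and mouse 2 the lowest for 36 (87.8%, against 22.5%). In rhodamine-negative libraries mouse 6 was the highest for 23 and mouse 5 for 15 (56.1% and 36.6%, against 14.2% and 26.0%), and mouse 2 was the lowest for 32 (78.0%, against 16.2%). The genes share libraries and are not independent of each other, so these shares describe the libraries. Set against each gene's own mean log2 CPM, the median level in mice 1 to 6 was -0.25, -0.95, -0.26, -0.12, 0.08 and 0.83 in rhodamine-positive and 0.18, -0.52, -0.11, -0.05, 0.55 and 0.68 in rhodamine-negative libraries. Both sorts of mouse 2 were thus low and both of mouse 6 high, while in mouse 5 the rhodamine-negative library was high and the rhodamine-positive library near the mean.

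**Figure D3:**
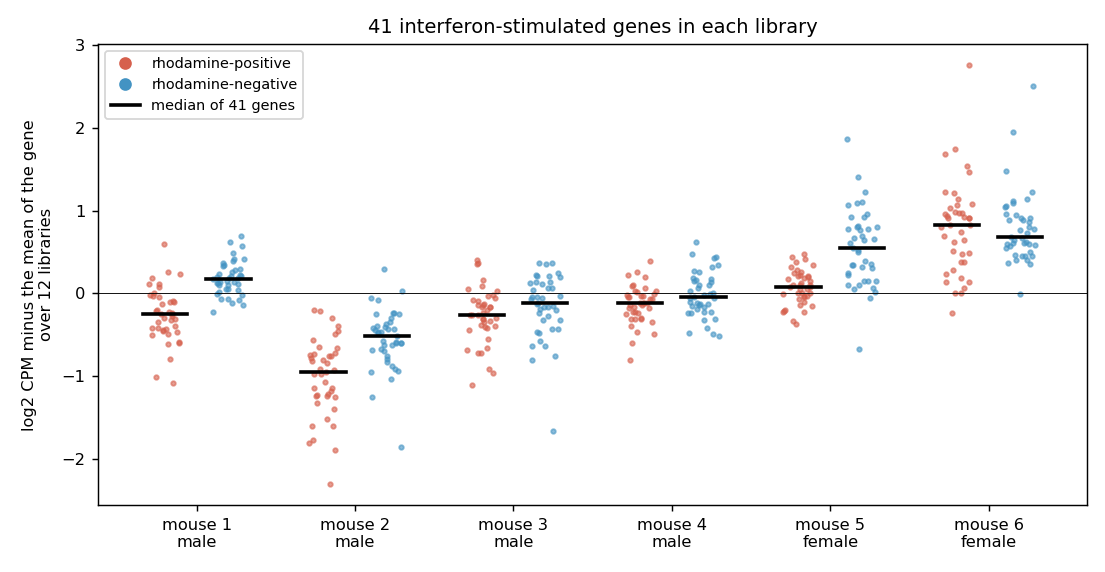
Log2 CPM of the 41 interferon-stimulated genes minus each gene's mean over the 12 libraries, for the rhodamine-positive (left) and rhodamine-negative (right) library of each mouse. Points are genes and bars their median, which runs from -0.95 and -0.52 in mouse 2 to 0.83 and 0.68 in mouse 6.

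The sort difference also varied between mice. The median pair difference of the 41 genes was -0.35, -0.30, -0.07, -0.08, -0.43 and 0.05 on the log2 scale in mice 1 to 6, and 37, 33, 24, 27, 34 and 17 of the genes were lower in the rhodamine-positive library. Over all genes the share that was lower stayed between 48.1% and 51.7% in every mouse. Mouse 6 was therefore the only mouse in which most of the genes, 24 of 41, were higher in the rhodamine-positive library. Among the 15 genes past the threshold, 11 were lower in mouse 6, and all 15 were lower in mice 1, 2 and 5. For 9 of these 15 the highest rhodamine-negative library was that of mouse 5. That library had the highest rhodamine-negative sums of dendritic cell, monocyte, NK cell, basophil and mast cell and endothelial markers. Without mouse 5, 9 of the 41 genes fell and 1 rose (22.0% and 2.44%, against 10.4% and 10.6% of all genes tested), 31 of the 41 estimates lay below 0, and their median was -0.17.

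A difference between the sexes in the sort effect was not detectable in this design. In edgeR's test of the sex by sort interaction, 0 of the 41 genes and 0% of all genes tested passed. At an unadjusted p under 0.05 there were 4 of the 41 genes, Bst2, Rtp4, Slfn5 and Mx2, and 1160 of all 15014, and the lowest adjusted p among the 41 was 0.562. With 4 male and 2 female mice, sex also cannot be told apart from single mice such as mice 5 and 6.

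The ligands of the pathway were scarce in these sorts. Of 21 interferon genes listed, only Ifnb1 had enough counts to be tested, with 1.39 to 11.8 CPM in rhodamine-positive and 2.53 to 6.58 CPM in rhodamine-negative libraries (-0.43 ± 0.37 on the log2 scale, adjusted p = 0.425). The other 20 were below the filter: 11 had 0 counts in every library, and the remaining 9 had 1 to 28 counts over all 12 libraries. Ifng, the gene of interferon gamma, had 4 counts in all. Many alpha genes share long stretches, so reads could have been lost between them.

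Receptors and kinases split by gene. Beside the counts of these and the further pathway lists stand the shares over all genes tested, of which 13.2% fell and 13% rose. Ifngr1, the ligand-binding chain of the interferon gamma receptor, had 287, 344 and 380 CPM as the lowest, median and highest value in rhodamine-positive and 420, 504 and 613 CPM in rhodamine-negative libraries. Its groups did not overlap, and it fell by 0.59 (SE 0.08, adjusted p = 0.000418). Jak2, a kinase through which interferon gamma also acts, had 21.7, 27.4 and 39.6 CPM in rhodamine-positive and 46.7, 62.5 and 139 CPM in rhodamine-negative libraries. The groups of Jak2 did not overlap either (-1.22 ± 0.22, adjusted p = 0.00215). Without mouse 5 the estimate of Jak2 was -0.93 ± 0.11 (adjusted p = 0.000186). Ifnar1 and Ifnar2, the type I receptor chains, had estimates of -0.29 (adjusted p = 0.0518) and 0.13 (adjusted p = 0.341). Ifngr2 (0.12), Jak1 (0.14) and Tyk2 (-0.32) did not pass either. Il10rb, shared with the receptors for interferon lambda and interleukin 10, rose by 0.29 (SE 0.10, adjusted p = 0.0451), a call lost without mouse 5 (adjusted p = 0.088).

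Of 10 further transcription factors, 4 fell and 0 rose. Irf1, an early target of interferon gamma, had 75.7, 118 and 304 CPM in rhodamine-positive and 173, 200 and 527 CPM in rhodamine-negative libraries and was lower in every mouse (-0.90 ± 0.10, adjusted p = 0.000134). Mouse 6 was the highest in both sorts for Irf1, as it was for most of the 41 genes. Irf4 (-1.66 ± 0.31), which is needed by one lineage of dendritic cells, Irf2 (-0.51 ± 0.11) and Irf5 (-0.38 ± 0.08) fell as well (adjusted p = 0.00271, 0.00579 and 0.00719). Irf3 and Irf8 did not pass.

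Among 15 negative regulators tested, 6 fell and 2 rose. Socs1, a feedback inhibitor of the Jak kinases, averaged 4.55 ± 2.33 CPM in rhodamine-positive and 13.9 ± 8.33 CPM in rhodamine-negative sorts (SD, n = 6) and fell by 1.57 (SE 0.21, adjusted p = 0.000359). Samhd1, which destroys deoxynucleotides, fell by 0.74 (SE 0.11, adjusted p = 0.000549), and Cish, a cytokine feedback inhibitor, by 2.07 (SE 0.39, adjusted p = 0.00283). Rnaseh2b, a subunit of the enzyme that removes RNA from DNA, rose by 0.73 (SE 0.10, adjusted p = 0.000457). Both the activators and the inhibitors of the response thus had members that fell.

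**Figure D4:**
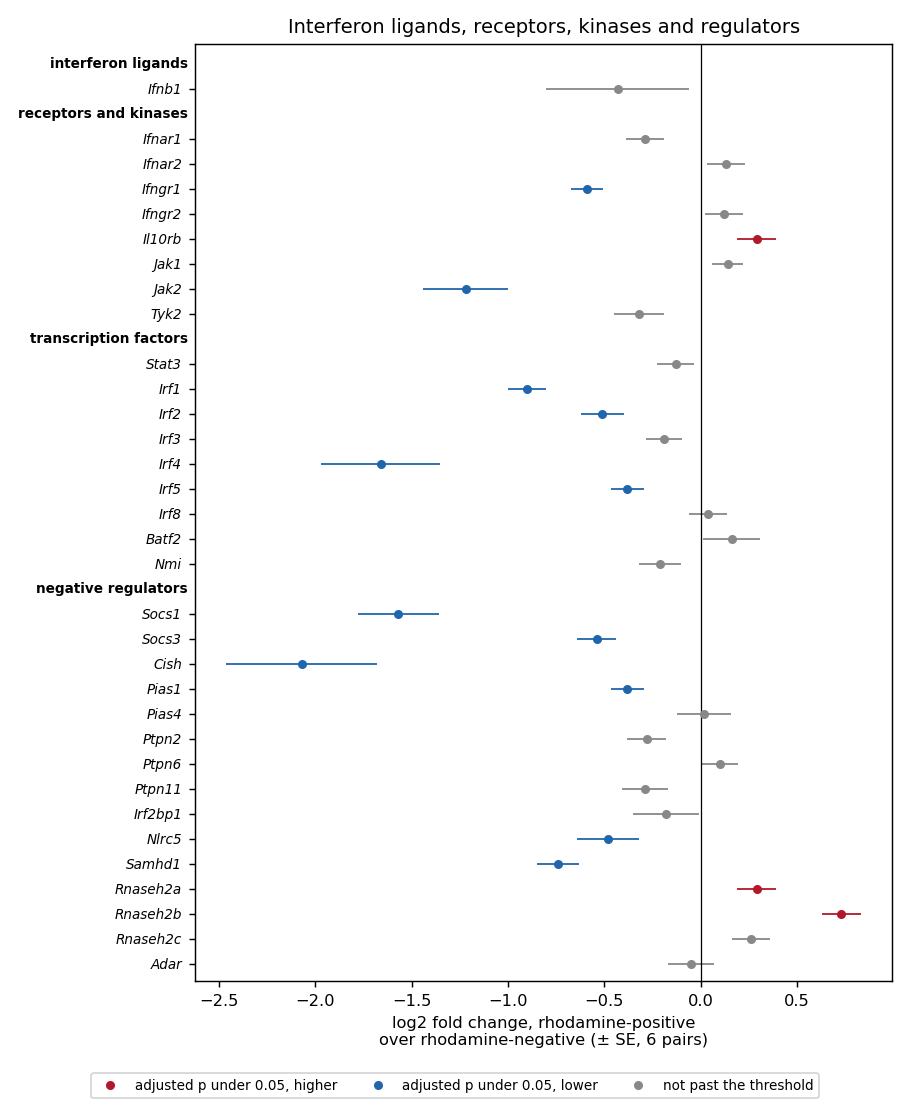
Log2 fold change, rhodamine-positive over rhodamine-negative, of the tested interferon ligand, receptors and kinases, of transcription factors outside the 41 genes that are reported here, and of negative regulators. Points are estimates over 6 pairs and bars are SE; Ifngr1, Jak2, Irf1, Irf4 and Socs1 were lower, and Il10rb and Rnaseh2b higher.

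Of 25 sensing genes, 7 fell and 1 rose. Of the HIN-200 genes, Ifi205 (-2.03 ± 0.16, adjusted p = 8.09e-06), Mndal (-1.36 ± 0.17) and Ifi203 (-1.64 ± 0.21) had groups that did not overlap. The family was not uniform. Without mouse 5, Ifi205, Mndal and Ifi203 had estimates of -1.87, -1.17 and -1.38. In the same setting Ifi204 and Ifi207 had estimates of -0.01 and -0.03 (adjusted p = 0.935 and 0.841). Ifi209, Ifi213 and Aim2 had -0.49, -0.70 and -0.32 (adjusted p = 0.00239, 0.00282 and 0.0281). Ifi205, Mndal and Ifi203 share 18.6%, 19.6% and 12.2% of their 50-base stretches with other genes, in part with one another, so the authors' counting could have split reads between them. Trim25, the ligase that activates RIG-I, also fell, by 0.64 (SE 0.09). Of 52 other interferon-induced genes, 23 fell and 4 rose. Ifitm1, a membrane protein that blocks virus entry, averaged 79.6 ± 21.1 CPM in rhodamine-positive and 578 ± 237 CPM in rhodamine-negative sorts (SD, n = 6) and was 7.08-fold lower (-2.82 ± 0.16, adjusted p = 8.82e-07), against at most 2.18-fold among the 41 genes. Ifitm2 (-1.26), Ms4a4c (-1.51) and Tgtp1 (-2.29) followed; Ifitm2 and Tgtp1 share 48.5% and 81.2% of their 50-base stretches with other genes, so their own values are uncertain. Of 14 chemokine, proteasome and antigen-processing genes, 4 fell: Cxcl9 (-1.29 ± 0.21), Cxcl11 (-1.81 ± 0.34), Psmb9 (-0.35 ± 0.08) and Ccl5 (-0.29 ± 0.09). In all, 46 of 125 further pathway genes tested fell (36.8%) and 8 rose (6.40%), with a median log2 fold change of -0.24. Over all genes tested, 13.2% fell and 13% rose, with a median of -0.02. Without mouse 5, 39 of the 125 pathway genes fell (31.2%) and 5 rose (4%), with a median of -0.20. The shares of all genes tested were then 10.4% and 10.6%, with a median of -0.01. Ccl5 no longer passed without mouse 5 (adjusted p = 0.061).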

How the data were processed

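Polyadenylated RNA was sequenced on an Illumina HiSeq instrument, per the labels' protocols. The authors deposited raw read counts per gene (1 joint table and 12 library files) and log2 normalized values. The library files equalled the joint table. Per the submitters' processing notes, the tools were HISAT2 2.1.0, featureCounts 1.4.4, bcl2fastq 2.17, cutadapt, limma and edgeR, with build mm10; the strand setting of the counting and the handling of reads that match several genes are not given in the sources used here. The deposited log2 table (10605 genes) equalled log2 CPM of these counts (offsets of 0.5 on counts and 1 on totals) shifted by -0.107 to 0.175 in each library. It served as an alternative.

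The 41 members and all gene lists were chosen with earlier results of these data known, so they are described by counts and medians and not tested as sets. Counts were tested by quasi-likelihood in edgeR 4.0.16 (R 4.3.3), with filterByExpr by sort (minimum count 10, minimum total 15), which kept 15014 genes holding 99.8% of the counts, TMM scaling, and the mouse as a block. P-values were adjusted by Benjamini-Hochberg over all genes tested, and genes passed under 0.05. A positive log2 fold change means higher in rhodamine-positive sorts, and its SE was obtained from the estimate and the root of F. Pair differences used log2 CPM with a prior count of 2. Every member could be named; of the other pathway lists, up to 4 genes with the smallest p, and any ligand, receptor, kinase or transcription factor. Other genes named there were chosen after their values were seen. From the transcription factor list, 1 gene is not reported here.

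Per the series' design text, the sorts are paired within mice. Deviations from the group means correlated across genes between the 2 libraries of mice 1 to 6 with r = 0.226, 0.207, 0.289, 0.0775, 0.302 and 0.45; the highest r with another mouse was 0.148 to 0.187, which mouse 4 did not exceed. No library was a copy of another: chi-square over degrees of freedom between libraries of a group was at least 20.8 in rhodamine-positive and 17.5 in rhodamine-negative sorts. Coordinates, exon lengths and shared 50-base stretches came from GENCODE vM21 on the same build (GRCm38), and promoters from RefSeq (GRCm38.p6). Alternatives were dropping the block, limma-voom, DESeq2 1.42.0, limma 3.58.1 on the deposited log2 values, other scalings, filters and thresholds, male mice alone, each mouse left out, an offset for GC content and gene length, and summed near copies. Pathway and marker counts without mouse 5 were added after the data were seen. The procedure was also run on simulated counts. These held no differences in level between mice, so they do not check the mouse block. Counts limit the precision of each value. With the block, SE and p-values rest on how the sort difference varied from mouse to mouse, and differences in level between mice are removed. SDs of CPM are over the 6 libraries of a sort and include those differences.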

Additional observations from a re-analysis of the deposited data

Results flagged for a closer look

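The levels of the 41 genes were examined in each sort for 1 library far from the other 5, which gave 18 cases among 82 groups of 6 libraries. Chance alone gives about 1 in 20 such groups, and the groups are not independent, since they share libraries. The rhodamine-positive library of mouse 6 was the high one in 13 cases, with the next library in parentheses: Isg15 at 64.2 CPM (32.1), Oas1g at 79.8 CPM (33.0), Zbp1 at 222 CPM (96.5), Gbp2 at 263 CPM (84.9), Gbp3 at 111 CPM (60.4), Iigp1 at 130 CPM (28.9), Igtp at 121 CPM (62.7), Irgm1 at 344 CPM (173), Ifi44 at 23.5 CPM (10.2), Ifi35 at 164 CPM (96.1), Xaf1 at 124 CPM (66.4), Trim30a at 191 CPM (125) and Parp14 at 95.7 CPM (56.1). In rhodamine-negative libraries mouse 6 was far above the others for Gbp2 at 304 CPM (99.7), Iigp1 at 109 CPM (30.9), Igtp at 142 CPM (68.8) and Irgm1 at 332 CPM (186). Gbp2, Iigp1, Igtp and Irgm1, all GTPases known as interferon gamma targets, were thus high in both sorts of the same mouse. Samd9l was the last case, with 104 CPM in the rhodamine-negative library of mouse 5 and 55.2 CPM in the next.

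Rtp4, a receptor chaperone, had pair differences above 0 in both female mice, the lower of them 0.05, and below 0 in all 4 male mice, the highest of them -0.02. In edgeR's quasi-likelihood test of the sex by sort interaction, adjusted over all genes tested, Rtp4 did not pass (adjusted p = 0.618).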

How the results depend on the processing

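Over the 41 genes, 697 values under other settings held no reversal of a called gene: 599 stayed on the same side of the threshold, 33 of them with an estimate of the other sign (10 genes, none past the threshold), 75 no longer passed and 23 newly passed. Without the replicate block, which ignores that both sorts came from the same mouse, 3 members were lower and 0 higher, and 1270 of all genes higher (1398 lower). Library size alone gave 24 members lower and 0 higher, with 852 of all genes higher and 3142 lower, against 1955 and 1986 with TMM. Limma on the deposited log2 values gave 13 members lower, 0 higher and 1240 higher and 1456 lower of all genes it holds. Male mice alone gave 8 members lower and 0 higher, and 1005 higher and 1222 lower of all genes. At an adjusted p under 0.01 there were 5 members lower and 0 higher, and 908 higher and 1033 lower of all genes. Leaving out each mouse gave 7 to 15 members lower, 0 to 1 higher, and 1257 to 1780 higher and 1421 to 1820 lower of all genes; Bst2 was the call lost without mouse 3 or mouse 6. DESeq2, limma-voom, RLE size factors, no filter and a stricter filter gave 16 to 19 members lower and 1 higher, and 1891 to 2050 higher and 2011 to 2414 lower of all genes. An offset for GC content and gene length, chosen after the data were seen, gave 13 members lower and 1 higher, and 2148 higher and 1954 lower of all genes. The median of the 41 genes stayed between -0.37 and -0.17 under all settings, and the sex interaction called 0 members with each mouse left out. The block changed the calls of Slfn5, Usp18, Mx1 and 9 other lower genes and of Bst2; settings with fewer mice or a stricter threshold ask more of each gene by construction, and the cause of the other changes was not tested. Members with few counts, such as Gbp5, Ifi44 and Mx2, are the ones whose precision depth limits most.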
